A study of Homo sapiens with 4 samples.

Results

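Semaphorins are secreted or membrane-bound guidance proteins, and plexins and neuropilins are their receptors. The set described here held the 31 genes, of 61471 gene names counted, that are named as a semaphorin of class 3 to 7, as a plexin, or as neuropilin NRP1 or NRP2. There were 20 semaphorin and 11 receptor genes. The members were selected by name from gene families that had been proposed with the fold changes of this same comparison known, and SEMA3E was already among the large decreases. Every level, fold change and call of the members is therefore a description, and no count of members called supports a statement about the family.

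Gene expression was measured by RNA sequencing in 4 libraries of MDA-MB-231, a human triple-negative breast cancer cell line. The EGFP negative group held 2 libraries of cells that are labelled as having increased extravasation, the passage of a cell out of a vessel into tissue. The EGFP positive group held 2 libraries of cells that are labelled as having no such increase. Per the labels, cells of both groups were of wild-type genotype and carried a histone H2B-EGFP and a CMV-driven RFP construct. EGFP status and extravasation status changed together and cannot be told apart. Separate cultures for replicate libraries are not stated in the labels, so p-values measure library-to-library spread only, and that spread may be technical.

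Semaphorins were first known for steering growing axons, and many also act on vessels, immune cells and tumour cells. A semaphorin binds the extracellular part of a plexin, whose cytoplasmic part inactivates small GTPases of the Ras and Rap family and so alters adhesion and the cytoskeleton. Most class 3 semaphorins, which are secreted, need a neuropilin as a co-receptor, while classes 4 to 7 are mostly held in the membrane and bind plexins directly. Neuropilins also bind vascular endothelial growth factors (VEGF).

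The deposited tables held 12635576 and 11620076 fragment counts in the EGFP negative libraries, against 11620005 and 11445076 in the EGFP positive libraries. H2BC11, a histone H2B gene, was at 7.07 and 5.48 CPM (counts scaled to library size) in EGFP negative libraries, against 669 and 638 CPM in EGFP positive libraries. Whether these reads came from the H2B part of the construct was not tested. The vimentin gene VIM, a mesenchymal marker of this line, was at 6022 and 5604 CPM in EGFP negative libraries, against 4217 and 4181 CPM in EGFP positive libraries, and was called higher (log2 fold change 0.47). Of the other markers of the line, CD44 and EGFR were called lower in EGFP negative cells (log2 fold changes -0.43 and -0.33) and KRT18 was not called. The 3 markers that the line is known to lack (ESR1, PGR and CDH1) together stayed at or below 0.521 CPM in every library.

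Of the 31 members, 27 passed the filter on low counts and were tested. In EGFP negative cells 10 of those 27 had higher levels, 5 had lower levels and 12 did not pass the test (edgeR's quasi-likelihood test, Benjamini-Hochberg adjusted p under 0.05 over 16413 genes). Over all genes tested, 9.4% were called higher, 9.46% lower and 18.9% in either direction. The median log2 fold change, EGFP negative over EGFP positive, was 0.05 over the members tested and -0.00 over all genes tested, and the median absolute log2 fold change was 0.39 and 0.22. The groups did not overlap in CPM for 20 of the 27 members, which is 74.1%, beside 57.4% of all genes tested. Since the family was proposed from this comparison, nothing is read from these shares. In these bulk samples, fewer cells that express a gene and less RNA per cell cannot be told apart.

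The calls are listed here by ligand and receptor, beside 9.4% of all genes tested called higher and 9.46% lower. Nothing is read from these counts either. Of 16 semaphorins tested, 5 were higher (SEMA3B, SEMA3F, SEMA4B, SEMA4D and SEMA6B) and 4 lower (SEMA3A, SEMA3D, SEMA3E and SEMA7A). Of the 11 receptors, all of them tested, 5 were higher (PLXNA1, PLXNA2, PLXNA4, PLXND1 and NRP1) and 1 was lower (PLXNA3). The PLXNA3 call was lost under 7 of the 11 alternatives. The called members that differed by at least 2-fold were SEMA3E, SEMA3D, SEMA3F, SEMA6B and PLXNA4. SEMA4B, whose log2 fold change rounds to 1.00, fell just short, with EGFP positive at 0.501 of EGFP negative. The median log2 fold change was -0.21 over the semaphorins tested and 0.33 over the receptors.

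**Figure D1:**
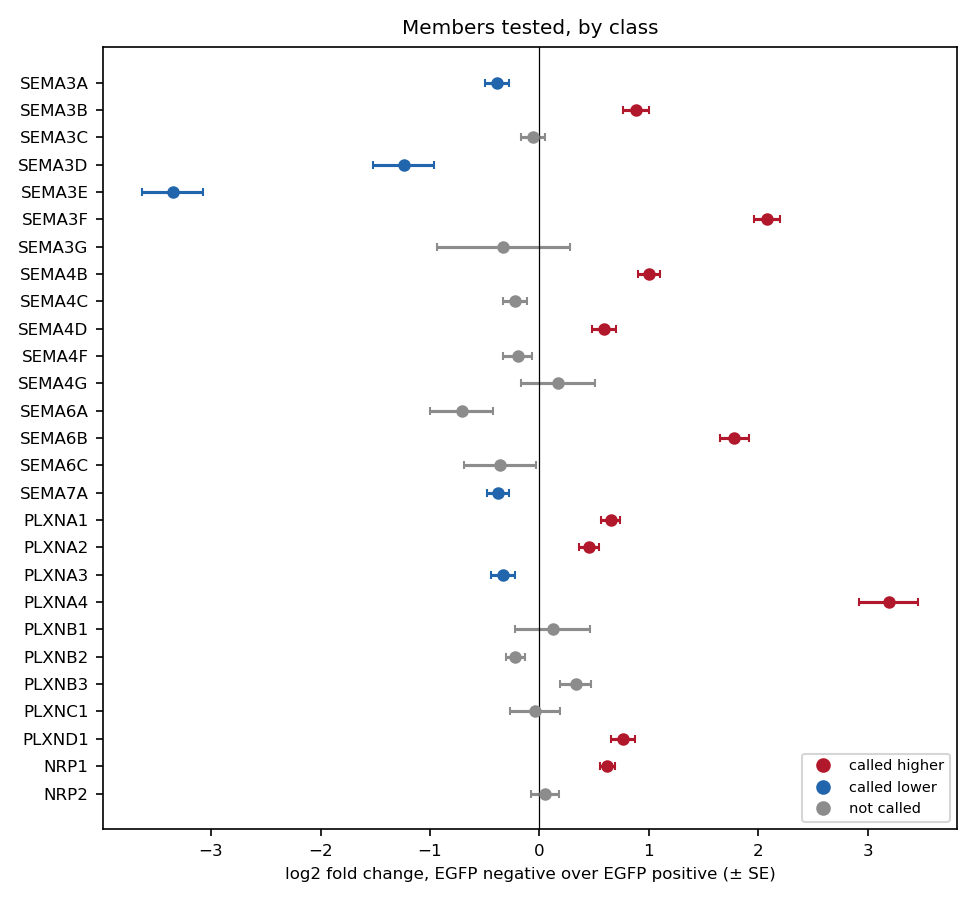
Log2 fold change, EGFP negative over EGFP positive, of the 27 members tested, by class; points are edgeR estimates and bars are ± 1 standard error from 2 libraries per group. PLXNA4 at 3.19 and SEMA3E at -3.35 lie farthest from 0.

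Among the semaphorin classes, class 3 had calls in both directions. SEMA3F and SEMA3B were higher in EGFP negative cells, SEMA3E, SEMA3D and SEMA3A were lower, and SEMA3C and SEMA3G did not pass the test. SEMA3F binds NRP2 by preference, and both SEMA3F and SEMA3B lie in a region of the short arm of chromosome 3 that is often lost in lung cancer. SEMA3E is the member that binds PLXND1 without a neuropilin. SEMA3A, the first vertebrate semaphorin to be purified as a collapser of growth cones, signals through NRP1 and A plexins.

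The upstream sequences of the 3 class 3 genes that changed by at least 2-fold are shown because these genes had the largest changes of the class, in both directions. Each is the 250 bases before the gene's RefSeq start (GRCh38.p14), written 5′ to 3′ on the gene's strand, and capitals mark matches to any of the motifs searched. SEMA3F is at chr3:50154808-50155057 on the plus strand, SEMA3E at chr7:83649140-83649389 on the minus strand and SEMA3D at chr7:85187057-85187306 on the minus strand.
SEMA3F: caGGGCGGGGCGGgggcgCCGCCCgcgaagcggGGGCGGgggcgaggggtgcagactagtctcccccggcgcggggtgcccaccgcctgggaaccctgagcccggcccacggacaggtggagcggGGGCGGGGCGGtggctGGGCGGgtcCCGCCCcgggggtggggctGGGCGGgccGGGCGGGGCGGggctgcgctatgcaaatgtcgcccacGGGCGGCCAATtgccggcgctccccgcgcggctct
SEMA3E: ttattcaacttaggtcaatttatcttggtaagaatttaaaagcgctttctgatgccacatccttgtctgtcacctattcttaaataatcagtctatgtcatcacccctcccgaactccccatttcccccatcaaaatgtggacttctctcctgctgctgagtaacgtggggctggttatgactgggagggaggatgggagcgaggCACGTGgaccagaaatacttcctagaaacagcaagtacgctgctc
SEMA3D: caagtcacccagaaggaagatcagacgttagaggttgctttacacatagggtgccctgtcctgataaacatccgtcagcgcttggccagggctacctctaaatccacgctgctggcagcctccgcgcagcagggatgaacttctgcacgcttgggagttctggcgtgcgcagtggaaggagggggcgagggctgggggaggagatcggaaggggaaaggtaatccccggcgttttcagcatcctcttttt

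The SEMA3F sequence had 82% G and C bases and 34 CpG dinucleotides, the SEMA3E sequence 46.4% and 6, and the SEMA3D sequence 57.6% and 13. Over 35116 RefSeq promoters the medians were 58% and 11. Motifs were searched on both strands. They were the GC box GGGCGG, the CCAAT box, the TATA box as TATAAA, the AP-1 site TGANTCA, the TEAD site GGAATG and the E-box CACGTG. The SEMA3F sequence held 12 GC boxes, some of which overlap, and 1 CCAAT box, and the SEMA3E sequence held 1 E-box. The SEMA3D sequence held none of the motifs. Among all promoters of the same length, 42.6% held the GC box, 32% the CCAAT box, 10.7% the TATA box, 6.57% the AP-1 site, 11.9% the TEAD site and 6.34% the E-box. A match describes letters in this window only. The table had entries for 27 of the 31 members, and those of the other class 3 genes SEMA3B, SEMA3C and SEMA3G had 68.8%, 36.4% and 62% G and C bases. Base composition did not separate the calls: the 8 members called higher with an entry ran from 52.4% (SEMA4D) to 88.8% (PLXND1), and the 4 called lower from 46.4% (SEMA3E) to 82.8% (PLXNA3). The windows of SEMA4D and PLXNA4 lie 2474 and 72218 bases from the start of the counted gene. Among the other members called higher, the lowest was SEMA3B at 68.8%, still below PLXNA3.

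SEMA3F had 70.1 and 60.2 CPM in EGFP negative libraries, against 14.7 and 16.1 CPM in EGFP positive libraries. All EGFP negative libraries lay far above all EGFP positive libraries. The means were 65.1 ± 6.99 CPM in EGFP negative cells and 15.4 ± 0.955 CPM in EGFP positive cells (SD, n = 2 each), a 4.23-fold difference (log2 fold change 2.08 ± 0.12 SE, edgeR adjusted p 5.7e-08). SEMA3B had 80.3 and 62 CPM in EGFP negative libraries, against 38.8 and 38.5 CPM in EGFP positive libraries. The EGFP negative libraries were again the higher ones, although they differed more from each other than the EGFP positive ones did. The log2 fold change of SEMA3B was 0.88 ± 0.12 (edgeR adjusted p 1.8e-04), or 1.84-fold.

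SEMA3E had 1.77 and 0.857 CPM in EGFP negative libraries, against 13 and 14.2 CPM in EGFP positive libraries. These values rested on 22 and 10 counts in EGFP negative libraries, against 150 and 164 counts in EGFP positive libraries. The groups were well apart, and SEMA3E was 10.2-fold higher in EGFP positive cells (log2 fold change -3.35 ± 0.28, edgeR adjusted p 1.6e-06). With EGFP negative library 1 left out the log2 fold change was -3.97, and with EGFP negative library 2 left out it was -2.93, so the size of the decrease depended on which of these low counts was used.

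SEMA3D, known in zebrafish for axon guidance and heart development, was also low throughout. It had 2.41 and 2.14 CPM in EGFP negative libraries, against 5.54 and 5.29 CPM in EGFP positive libraries (log2 fold change -1.24 ± 0.28, edgeR adjusted p 0.0058). The counts were 30 and 25 in EGFP negative libraries, against 64 and 61 in EGFP positive libraries. Both groups were narrow and did not overlap. SEMA3A had 37.4 and 44.2 CPM in EGFP negative libraries, against 55.2 and 51.7 CPM in EGFP positive libraries (log2 fold change -0.39 ± 0.11, edgeR adjusted p 0.026). Here the groups were close together. The call was lost with no filter on low counts (edgeR adjusted p 0.053) and by DESeq2 (adjusted p 0.066). It was also lost without EGFP positive library 1 (log2 fold change -0.34, edgeR adjusted p 0.25) and without EGFP positive library 2 (-0.44, adjusted p 0.1). Such a fit leaves 1 library in a group, which is assumed to vary like the other group, and fits without an EGFP positive library called fewer of all genes.

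SEMA3C, which binds both neuropilins and is needed for the cardiac outflow tract in the mouse, did not pass the test. It had 78.6 and 96.8 CPM in EGFP negative libraries, against 90.1 and 92.4 CPM in EGFP positive libraries, and the EGFP negative values lay on either side of the EGFP positive ones. SEMA3G, a class 3 member of endothelial cells, had 0.723 and 1.29 CPM in EGFP negative libraries, against 2.08 and 0.434 CPM in EGFP positive libraries. At 5 to 24 counts per library its groups overlapped, and no difference was detectable at this depth.

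Relative levels within class 3 were compared in TPM, a length-scaled unit that divides each count by the exon length. SEMA3F made up 28.9 and 26.2% of the summed class 3 TPM in EGFP negative libraries, against 8.82 and 9.61% in EGFP positive libraries. SEMA3C made up 25.7 and 33.4% in EGFP negative libraries, against 42.8 and 43.8% in EGFP positive libraries. A share also depends on the other genes of the class. The level of SEMA3C itself was not called, at 34.8 and 43.8 TPM in EGFP negative libraries, against 40.9 and 43 TPM in EGFP positive libraries. SEMA3E made up 0.356 and 0.182% in EGFP negative libraries, against 3.8 and 4.16% in EGFP positive libraries. SEMA3B had the highest share in EGFP negative library 1 and SEMA3C in the other 3 libraries, so the first gene of the class did not separate the groups. The ratio of SEMA3F to SEMA3E in TPM was 81.3 and 144 in EGFP negative libraries, against 2.32 and 2.31 in EGFP positive libraries. The groups did not overlap in this ratio, which combines a gene called higher with one called lower and so carries no test of its own.

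**Figure D2:**
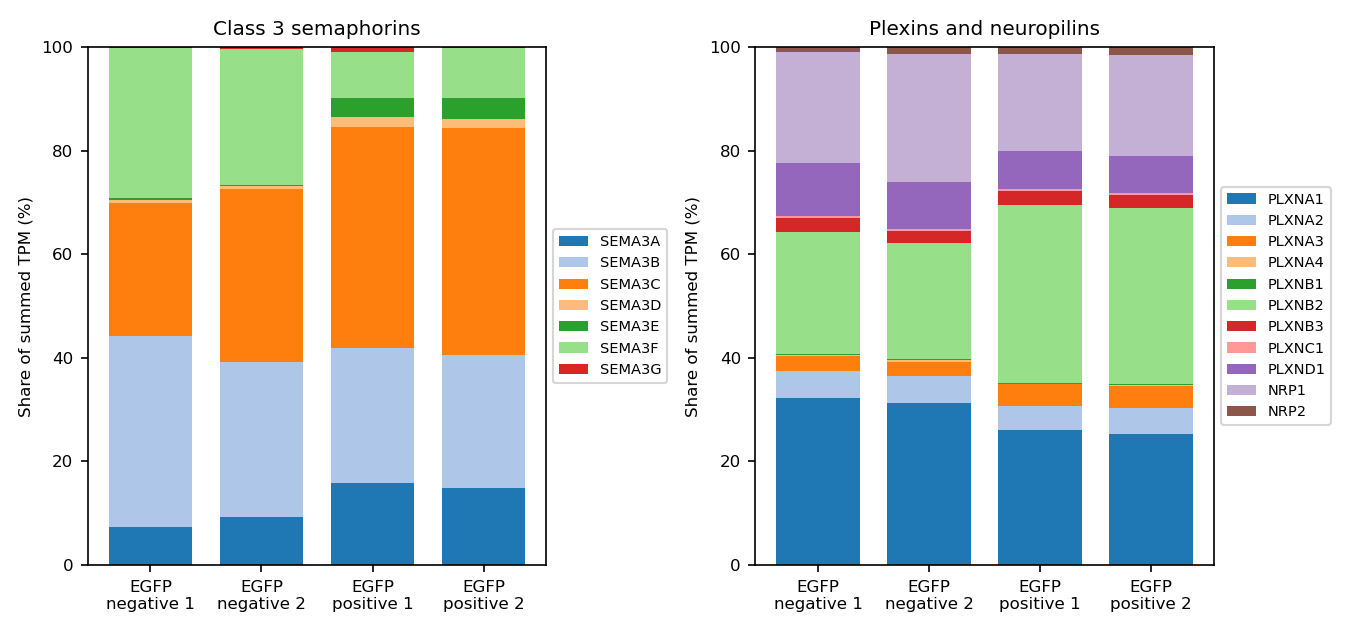
Share of summed TPM, in percent, taken by each class 3 semaphorin and by each receptor in the 4 libraries. SEMA3F takes 28.9 and 26.2% of the class 3 total in EGFP negative libraries and under 10% in EGFP positive libraries, and PLXNB2 takes 23.6 and 22.5% of the receptor total in EGFP negative libraries, against 34.4 and 34% in EGFP positive libraries. A share also depends on the other genes of the total, and the level of PLXNB2 itself was not called.

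The class 3 genes lie mostly in clusters, and their genomic neighbours were set beside them. On chromosome 7, 4 of them (SEMA3C, SEMA3E, SEMA3A and SEMA3D) span 4.44 Mb, chr7:80742538-85187056 in the GRCh38 coordinates of the deposited annotation. Of these 4, 3 were lower, beside 9.46% of all genes tested, and the median log2 fold change was -0.82. The SEMA3A call was lost under 4 of the 11 alternatives. The interval held 29 other genes, of which 4 passed the filter, none was called and the median log2 fold change was -0.04. The log2 fold changes of these 4 were 0.03 for CACNA2D1, -0.11 for PCLO, 0.08 for HNRNPA1P8 and -0.70 for ENSG00000280325 (edgeR adjusted p 0.067). ENSG00000280325 had 3.78 and 3.34 CPM in EGFP negative libraries, against 6.32 and 5.29 CPM in EGFP positive libraries, without overlap. On chromosome 3, SEMA3F, SEMA3B and SEMA3G span 2.29 Mb, chr3:50155091-52445103. Of 39 other genes tested there, 5 were higher and 1 was lower, beside 9.4% and 9.46% of all genes tested. Their median log2 fold change was 0.09. GNAI2, which lies between SEMA3F and SEMA3B, was among those higher, with a log2 fold change of 0.49. The largest log2 fold change in each interval was that of a semaphorin, SEMA3E and SEMA3F. These are descriptions of neighbours, with no test of the interval, and nothing is read from the counts of calls.

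**Figure D3:**
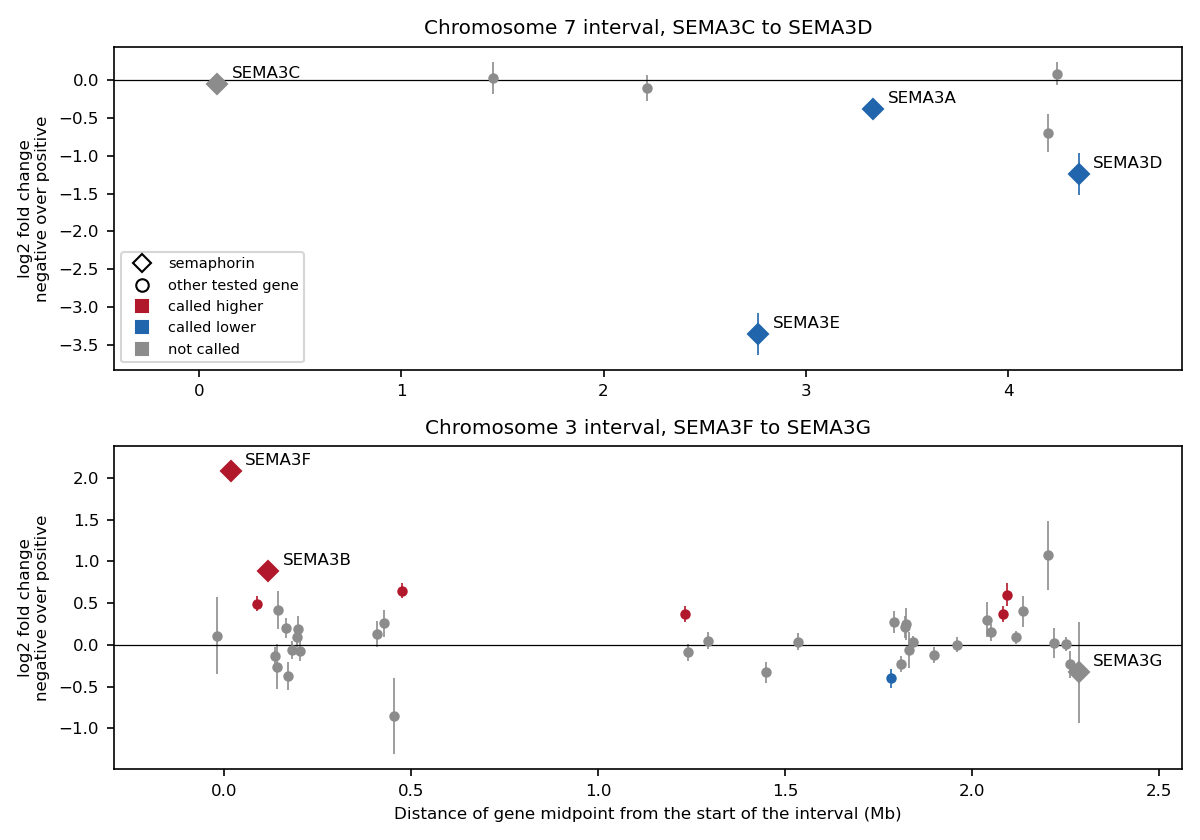
Log2 fold change, EGFP negative over EGFP positive, of the tested genes in the chromosome 7 and chromosome 3 intervals against distance from the first class 3 gene in Mb; semaphorins are marked apart from other genes. SEMA3E at -3.35 and SEMA3F at 2.08 stand apart from the genes around them.

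Class 4 semaphorins cross the membrane, and SEMA4D, known as CD100 on lymphocytes, is the ligand of PLXNB1. SEMA4B had 107 and 96.2 CPM in EGFP negative libraries, against 49.9 and 51.7 CPM in EGFP positive libraries (log2 fold change 1.00 ± 0.10, edgeR adjusted p 7.3e-06). SEMA4D had 61 and 53.9 CPM in EGFP negative libraries, against 38.1 and 38 CPM in EGFP positive libraries (log2 fold change 0.59 ± 0.11, edgeR adjusted p 0.0013). For SEMA4B and SEMA4D the EGFP negative libraries were above the EGFP positive ones without overlap. SEMA4C, a ligand of PLXNB2, had 35.3 and 33.8 CPM in EGFP negative libraries, against 42.1 and 38.4 CPM in EGFP positive libraries, and its adjusted p of 0.19 by edgeR missed the threshold. SEMA4F and SEMA4G also did not pass, with log2 fold changes of -0.20 and 0.17. SEMA4G shares 738 exon bases with MRPL43 on the opposite strand, and reads of the pair could not be told apart because the counting used no strand option. SEMA4A, known from immune cells, had a count of 0 in all 4 libraries.

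Class 5 semaphorins, which carry thrombospondin repeats, were not detectable at a level that could be compared. SEMA5A had 0 and 1 counts in EGFP negative libraries, against 1 and 0 in EGFP positive libraries. SEMA5B had 3 and 0 counts in EGFP negative libraries, against 0 and 0 in EGFP positive libraries. A count of 3 corresponded to 0.241 to 0.26 CPM.

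Class 6 semaphorins are transmembrane ligands of A plexins, and SEMA6B stood apart from the rest of the class in level. SEMA6B had 163 and 120 CPM in EGFP negative libraries, against 42 and 40.4 CPM in EGFP positive libraries. The means were 142 ± 30 CPM in EGFP negative cells and 41.2 ± 1.13 CPM in EGFP positive cells (SD, n = 2 each), a 3.43-fold difference (log2 fold change 1.78 ± 0.13, edgeR adjusted p 3.7e-07). The EGFP negative libraries differed widely from each other, yet both were far above the EGFP positive ones. SEMA6A and SEMA6C stayed below 5 CPM in every library and did not pass the test. SEMA6D had 6 and 13 counts in EGFP negative libraries, against 2 and 3 in EGFP positive libraries. The ratio of summed counts, scaled to the summed library totals, was 3.61 with a 95% counting interval of 1.31 to 12.4. This interval leaves out the spread between libraries and is no test of a difference. SEMA6D did not pass the filter on low counts and was not tested in the main comparison.

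SEMA7A is anchored to the membrane by a lipid and binds PLXNC1 and integrins with the ITGB1 chain. It had 53.1 and 52.8 CPM in EGFP negative libraries, against 72 and 65.4 CPM in EGFP positive libraries (log2 fold change -0.38 ± 0.10, edgeR adjusted p 0.016). The groups did not overlap. Without EGFP positive library 1 the log2 fold change was -0.31 (edgeR adjusted p 0.31), and without EGFP positive library 2 it was -0.44 (adjusted p 0.078).

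In TPM, the order of the semaphorins differed between the groups. SEMA6B came first in EGFP negative cells with 85.9 and 64.8 TPM, against 22.7 and 22.4 TPM in EGFP positive cells, where it was the sixth. SEMA7A was the sixth in EGFP negative cells with 33.5 and 34 TPM, against 46.5 and 43.3 TPM in EGFP positive cells, where it came first. In EGFP positive cells SEMA3C followed closely, at 40.9 and 43 TPM. In CPM, which is not scaled to length, SEMA3C was above SEMA7A in these cells (90.1 and 92.4, against 72 and 65.4 CPM). SEMA4B followed SEMA6B in EGFP negative cells with 60 and 55.3 TPM, against 28.8 and 30.6 TPM in EGFP positive cells. Neighbours in the EGFP negative order were often not separated: the libraries of SEMA3B (49.9 and 39.4 TPM), SEMA3C (34.8 and 43.8 TPM) and SEMA3F (39.2 and 34.4 TPM) overlapped. The summed TPM of all semaphorins was 363 and 330 in EGFP negative libraries, against 242 and 242 in EGFP positive libraries. Class 6, nearly all of it SEMA6B, took 24.4 and 20.3% of that sum in EGFP negative libraries, against 10.7 and 10.4% in EGFP positive libraries, while class 3 took 37.4 and 39.7%, against 39.5 and 40.6%.

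**Figure D4:**
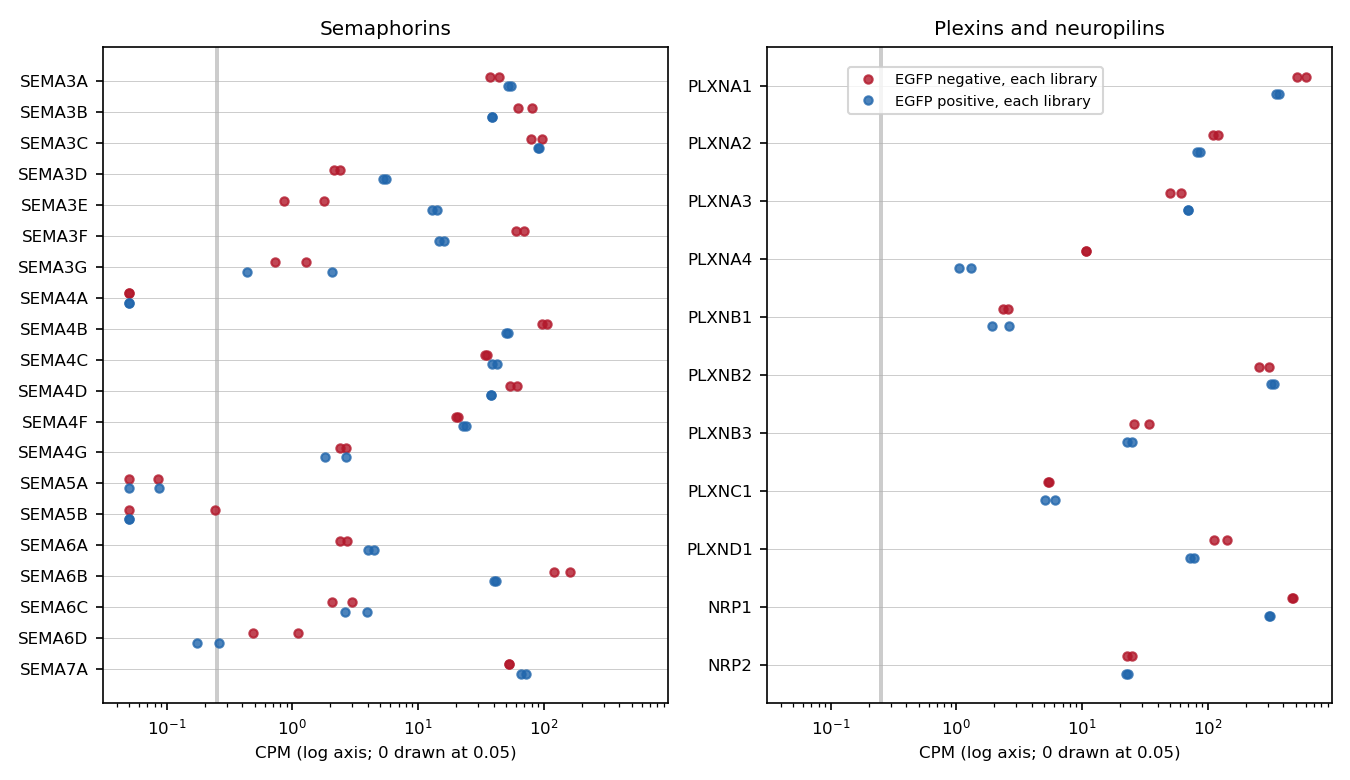
CPM of each member in the 4 libraries on a log axis, by class; each point is 1 library, EGFP negative and EGFP positive are drawn in separate colours, the grey band marks the CPM of 3 counts, and a count of 0 is drawn at 0.05. SEMA3E and PLXNA4 show the widest gaps between the groups.

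The A plexins are receptors of class 6 semaphorins and, with a neuropilin, of class 3 semaphorins. Of the 4, 3 were called higher and 1 lower, beside 18.9% of all genes tested called in either direction. Nothing is read from this count. PLXNA4, which binds SEMA6B, had 10.8 and 10.8 CPM in EGFP negative libraries, against 1.3 and 1.04 CPM in EGFP positive libraries. The counts were 134 and 126 in EGFP negative libraries, against 15 and 12 in EGFP positive libraries, so the EGFP positive level rests on few reads. The difference was 9.14-fold (log2 fold change 3.19 ± 0.27, edgeR adjusted p 1.9e-06), and the groups were widely separated.

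PLXNA1, the most abundant receptor in EGFP negative cells, had 608 and 514 CPM in EGFP negative libraries, against 367 and 346 CPM in EGFP positive libraries (log2 fold change 0.65 ± 0.09, edgeR adjusted p 1.4e-04). PLXNA2 had 121 and 109 CPM in EGFP negative libraries, against 82.7 and 86 CPM in EGFP positive libraries (log2 fold change 0.45 ± 0.09, edgeR adjusted p 0.0037). PLXNA1 and PLXNA2 were without overlap between the groups, and the call of PLXNA2 was lost without EGFP positive library 1 (log2 fold change 0.42, edgeR adjusted p 0.09). PLXNA3 had 61 and 50.2 CPM in EGFP negative libraries, against 69.8 and 69.9 CPM in EGFP positive libraries (log2 fold change -0.33 ± 0.11, edgeR adjusted p 0.048). Its call was the weakest of the set and was lost under 7 of the 11 alternatives. PLXNA4 remained a small part of the A plexins in TPM: the ratio of PLXNA1 to PLXNA4 was 98 and 82.6 in EGFP negative libraries, against 491 and 576 in EGFP positive libraries.

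No B plexin was called in the reported test, though PLXNB2 and PLXNB3 were called under some alternatives. B plexins bind class 4 semaphorins. PLXNB2 had 306 and 255 CPM in EGFP negative libraries, against 335 and 321 CPM in EGFP positive libraries (log2 fold change -0.22 ± 0.09, edgeR adjusted p 0.11). PLXNB3, a receptor of SEMA5A, had 34.2 and 25.9 CPM in EGFP negative libraries, against 25 and 22.7 CPM in EGFP positive libraries (log2 fold change 0.33 ± 0.14, edgeR adjusted p 0.13). With the replicate number as a block the adjusted p by edgeR was 0.0047 for PLXNB2 and 0.028 for PLXNB3. PLXNB2 was also called without EGFP negative library 1 (log2 fold change -0.36) and PLXNB3 without EGFP negative library 2 (0.53). PLXNB2 and PLXNB3 were separated between groups by less than the EGFP negative libraries differed among themselves. PLXNB3 shares 1252 exon bases, 19.6% of its exon length, with SRPK3 on the same strand. PLXNB1, the SEMA4D receptor, stayed between 1.9 and 2.6 CPM in all libraries.

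PLXND1, the SEMA3E receptor, had 142 and 111 CPM in EGFP negative libraries, against 77.5 and 71.8 CPM in EGFP positive libraries (log2 fold change 0.76 ± 0.11, edgeR adjusted p 3.2e-04). Its groups did not overlap. The ligand and its receptor had calls in opposite directions. The ratio of PLXND1 to SEMA3E in TPM was 93.9 and 151 in EGFP negative libraries, against 6.97 and 5.88 in EGFP positive libraries. This ratio combines a gene called higher with one called lower and so carries no test of its own. In EGFP negative libraries it rests on 22 and 10 counts of SEMA3E. PLXNC1, the SEMA7A receptor, had 5.46 and 5.31 CPM in EGFP negative libraries, against 5.02 and 6.08 CPM in EGFP positive libraries, and the groups overlapped.

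NRP1, the co-receptor of SEMA3A and of VEGFA, had 471 and 474 CPM in EGFP negative libraries, against 305 and 312 CPM in EGFP positive libraries. The libraries of each group were nearly equal and the groups were far apart. The means were 472 ± 1.99 CPM in EGFP negative cells and 308 ± 4.83 CPM in EGFP positive cells (SD, n = 2 each; log2 fold change 0.62 ± 0.07, edgeR adjusted p 5.5e-05). NRP2, the co-receptor of SEMA3F and of VEGFC, had 22.6 and 24.8 CPM in EGFP negative libraries, against 23.1 and 22.5 CPM in EGFP positive libraries, with overlapping groups (log2 fold change 0.05 ± 0.13). In TPM the ratio of NRP1 to NRP2 was 19.8 and 18.2 in EGFP negative libraries, against 12.5 and 13.2 in EGFP positive libraries.

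Among all receptors in TPM, PLXNA1, PLXNB2 and NRP1 were the most abundant. PLXNA1 had 144 and 124 TPM in EGFP negative libraries, against 88.9 and 85.9 TPM in EGFP positive libraries. PLXNB2 had 105 and 89.5 TPM in EGFP negative libraries, against 118 and 116 TPM in EGFP positive libraries. NRP1 had 95.8 and 98.4 TPM in EGFP negative libraries, against 63.5 and 66.6 TPM in EGFP positive libraries. In TPM, PLXNA1 was thus first in EGFP negative cells and PLXNB2 in EGFP positive cells, and PLXNB2 and NRP1 overlapped in EGFP negative cells. This change of the first receptor depends on the length scaling. In CPM, PLXNA1 was above PLXNB2 in every library (367 and 346, against 335 and 321 CPM, in EGFP positive libraries). The level of PLXNB2 itself was not called.

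Of the other genes of the pathway, taken from lists of known partners, 55 were tested, and 11 were higher and 10 lower. Their median log2 fold change was 0.00. The share called was 38.2%, beside 18.9% of all genes tested. Their median level was 56.3 CPM, beside 21 CPM over all genes tested. The lists were chosen with earlier results known, so nothing is read from the shares called. Of 8 co-receptors and partners tested, 2 were higher and 2 lower, or 50% called. L1CAM, an adhesion molecule that binds NRP1, was lower in EGFP negative cells at 77.1 and 73.5 CPM, against 113 and 115 CPM in EGFP positive cells (log2 fold change -0.60 ± 0.09, edgeR adjusted p 3.0e-04). PTK7, a receptor-like kinase, was lower (log2 fold change -0.49), and the integrin genes ITGA1 and ITGB1 were higher (0.70 and 0.29). Of 6 VEGF ligands and receptors tested, 50% were called. VEGFB was higher (log2 fold change 0.34), VEGFC and PGF were lower (-0.53 and -0.67), and VEGFA, the main NRP1 ligand of the family, did not pass.

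Of 34 intracellular signalling genes tested, 7 were higher and 5 lower, or 35.3% called, beside 18.9% of all genes tested. TIAM1, an exchange factor that activates RAC1, had 23.2 and 24.4 CPM in EGFP negative libraries, against 4.33 and 3.65 CPM in EGFP positive libraries (log2 fold change 2.58 ± 0.18, edgeR adjusted p 2.3e-07). PAK1, a kinase downstream of RAC1, was higher (log2 fold change 0.61), while RND3 and ROCK1, a kinase gene of actomyosin contraction, were lower (-0.77 and -0.60). RND3 belongs to the Rnd GTPases, which bind plexins. Of 7 genes for proteolytic processing tested, 1 was higher and 1 lower, or 28.6% called. MMP14, a membrane metalloproteinase that sheds SEMA4D, had 1276 and 1213 CPM in EGFP negative libraries, against 756 and 725 CPM in EGFP positive libraries (log2 fold change 0.75 ± 0.07, edgeR adjusted p 6.2e-06). ADAMTS1, a secreted protease that cleaves SEMA3C, had 44.6 and 45.2 CPM in EGFP negative libraries, against 94.6 and 91.8 CPM in EGFP positive libraries (log2 fold change -1.05 ± 0.09, edgeR adjusted p 3.2e-06). FURIN, which cleaves class 3 semaphorins, did not pass (log2 fold change -0.02).

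Markers of other cell types were set beside the members. The summed CPM of 4 endothelial markers was 3.37 and 3.77 in EGFP negative libraries, against 1.04 and 1.13 in EGFP positive libraries. Nearly all of it was PECAM1, with 3.13 and 3.69 CPM in EGFP negative libraries, against 0.779 and 0.781 CPM in EGFP positive libraries, and the defining marker CDH5 was at a count of 0 in all 4 libraries. Summed fibroblast markers were at 28.4 and 18.7 CPM in EGFP negative libraries, against 27 and 23.2 CPM in EGFP positive libraries, and the defining marker DCN was at 0. Most of that sum was COL1A1, which was not called, with 22.4 and 13.9 CPM in EGFP negative libraries, against 23.5 and 21.3 CPM in EGFP positive libraries. PDGFRB was called higher in EGFP negative cells, with 5.86 and 4.46 CPM, against 3.2 and 1.82 CPM in EGFP positive cells (log2 fold change 1.04, edgeR adjusted p 0.033). PECAM1 and PDGFRB thus moved with the groups. Leukocyte markers summed to at most 0.692 CPM and neuron markers to at most 1.56 CPM in any library, with CD3E and GAP43 at 0. Among the members tested, EGFP negative library 1 was above library 2 for 20 of 27 (74.1%), beside 49.9% of all genes tested. The part of these differences in the members' results was not tested.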

How the data were processed

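RNA was polyA-selected and made into directional libraries, per the labels' protocols. The authors deposited raw fragment counts per gene name, made with featureCounts 2.0.1 over exons from GENCODE 46 (basic set), per the file headers. They show no strand option, so sense and antisense reads of overlapping genes could not be told apart. The aligner is not given in the sources used here. The submitters' processing notes name GRCh37 and hg19, while the tables carry coordinates of GRCh38: 24 of the 31 members share a start or end base with GENCODE 29 on that build. The build of the read alignment was not settled.

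Groups and replicate numbers came from the labels. Genes were kept by filterByExpr (minimum count 10, minimum total 15), which left 16413 of 61471. One quasi-likelihood fit in edgeR 4.0.16 (R 4.3.3), with TMM factors and group as the only term, gave log2 fold changes of EGFP negative over EGFP positive. P-values were Benjamini-Hochberg adjusted over all 16413 genes and called under 0.05. The SE was the log2 fold change over the square root of F. CPM used TMM-scaled library sizes, and TPM was computed from the deposited counts and exon lengths. The scripts were tested on simulated data. The biological coefficient of variation was 7.52%. Chi-square per degree of freedom between replicate libraries was 6.15 in EGFP negative and 2.06 in EGFP positive libraries, so none was a duplicate. A permutation of 2 against 2 libraries cannot go below an exact two-sided p of 0.33. Counting intervals are exact, at 95%, and cover counting error only, since fragments carry no molecular identifiers.

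The members and all lists were chosen with earlier results of these data known. Named were all members, and from each pathway list up to 4 called genes with the smallest adjusted p, or up to 2 with the highest CPM where none was called; GNAI2, VEGFA, FURIN and the other tested genes of the chromosome 7 interval were named after their values were seen. The 11 alternatives were RLE and upper-quartile scaling, no filter, a stricter filter, DESeq2 1.42.0, limma-voom 3.58.1, a replicate block, and leaving out each library. Upstream sequences came from RefSeq (GRCh38.p14), the start nearest the gene's annotated start being used.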

Additional observations from a re-analysis of the deposited data

How the results depend on the processing

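Of 296 comparisons of a member's log2 fold change with an alternative, 271 kept direction and side of the threshold, 14 lost the call, 4 gained it and 7 changed sign. Of the 27 members tested, 15 kept both under every alternative that could be run. The 7 sign changes were of members never called, when 1 library was left out. Over the 4 such fits the log2 fold change ran from -0.21 to 0.08 for SEMA3C, -1.05 to 1.18 for SEMA3G (0.03 without EGFP negative library 1), -0.00 to 0.12 for NRP2, -0.09 to 0.47 for SEMA4G, -0.09 to 0.36 for PLXNB1 and -0.17 to 0.10 for PLXNC1. Calls were lost for PLXNA3 (adjusted p up to 0.26), SEMA3A (up to 0.25), SEMA7A (up to 0.31) and PLXNA2 (0.09 without EGFP positive library 1). Members called lower numbered 3 with no filter and 3 by DESeq2, against 5 in the reported test. DESeq2 called 997 of all genes lower. Leaving out each library in turn gave 9 to 11 members higher, 2 to 6 lower, 720 to 2477 of all genes higher, 715 to 2465 lower and 12 to 32 pathway genes called, against 21. The lowest counts over all genes came without an EGFP positive library. A group left with 1 library is assumed to vary like the other group. The cause of these changes was not tested. The stricter filter left SEMA3G out. Alternatives for the pathway genes were added after the data were seen.

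The replicate numbers are shared between the groups, but with 2 pairs and a correlation of deviations of 0.114 they were not taken to pair the libraries. The fit with the replicate number as a block called 2407 of all genes lower, 33 pathway genes, and 11 members higher and 6 lower, with PLXNB3 (adjusted p 0.028) and PLXNB2 (0.0047) added. Depth limits SEMA3G, SEMA6D and the class 5 genes.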
